A study of Mus musculus with 17 samples.

Results

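The 10 genes described here encode proteins that join epithelial cells to each other: the claudins Cldn1, Cldn2, Cldn3, Cldn4, Cldn6, Cldn7, Cldn8 and Cldn10, occludin (Ocln) and E-cadherin (Cdh1). They were chosen by name, as probes whose gene name or RefSeq accession on the array is one of these genes, which gave 12 probes for 10 of the 28786 genes on the arrays. Ocln and Cldn1 have a pair of probes each, and the brightest probe stood for a gene in every comparison. RNA from epithelial tumor cells, cut out by laser from frozen sections, was profiled in 17 mammary tumors of FVB mice against a universal mouse reference RNA that was the same on every array. All mice carried an isoform of the homeodomain transcription factor CUX1 as a transgene under MMTV regulatory sequences, which direct expression mainly to mammary epithelium: 9 tumors came from p75-CUX1 mice and 8 from p110-CUX1 mice, each named by transgene and mouse number, and no tumor without a transgene was profiled. By the labels, 4 tumors are adenosquamous carcinomas, 9 are solid carcinomas, 2 are adenomyoepitheliomas, 1 is an adenocarcinoma and 1 is an adenoma. The age of the mice is not given in the sources used here.

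Tight junctions seal neighboring epithelial cells near their apical side. Claudins form the strands of the seal and set which ions may pass, occludin sits in the same strands, and E-cadherin holds cells together in the adherens junction just below and binds β-Catenin on its inner side. In breast cancer, tumors with little mRNA for claudins and E-cadherin, few luminal keratins and more mesenchymal and immune transcripts are called claudin-low, which is why Cldn3, Cldn4, Cldn7, Ocln and Cdh1 are used below as core genes for describing single tumors.

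Values are log2 ratios of tumor over reference, so a value of 0 means equal signal in both and a value of 1 means a doubling. A gene is called measured if every array of a tumor carried the scanner software's mark for signal well above background, in the tumor channel, on at least a 0.5 share of the probe's spots (2 arrays for 15 tumors and 4 for the remaining 2, with dyes swapped). A gene that is dim in both tumor and reference also gives a value near 0, so the flag is given beside such values. Of the 38 arrays, the reference was above background on all 38 for Cldn3 and Cldn7 and on at most 5 for the probes of each other member. For those 8 members a value near 0 in a tumor that was not measured therefore sets no level, and the ratio understates how much higher a bright tumor was.

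The probes decide which part of a transcript was read, and 2 that join exons are shown because they can only come from spliced RNA. They are written 5′ to 3′ as deposited, with no part marked. The Cldn7 probe lies on the forward strand at chr11:70048852-70049161 of mouse build mm7, where its 60 bases span 310 bases of genome. The Ocln probe lies on the reverse strand at chr13:97627594-97628787 and spans 1194 bases.

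Cldn7 probe: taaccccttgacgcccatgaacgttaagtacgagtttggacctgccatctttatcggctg

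Ocln probe: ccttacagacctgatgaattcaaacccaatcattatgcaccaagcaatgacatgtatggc

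This Ocln probe was measured in 0 of 17 tumors, while the other Ocln probe, at chr13:97585859-97585918 and so farther toward the 3′ end of this reverse-strand gene, was measured in 8. RNA was amplified in 2 rounds before labelling, and its part in the difference between the probes was not tested. The Cldn1 probes, on the reverse strand at chr16:26020464-26020523 and chr16:26018826-26018885, were measured in 5 tumors and in 1. For Cldn1 the probe farther toward the 3′ end was thus measured in fewer tumors, the other way round from Ocln.

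Cldn3 and Cldn4 are neighbors on chromosome 5, and the 250 bases before their RefSeq starts are shown because one gene was measured in every tumor and the other in 8. The letters CACCTG or, on the other strand, CAGGTG, the E-box that repressors of the Snail and Zeb families are known to bind, are in capitals. Coordinates are of build GRCm38.p6, at chr5:134985964-134986213 on the forward strand for Cldn3 and chr5:134946935-134947184 on the reverse strand for Cldn4.

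Cldn3 promoter: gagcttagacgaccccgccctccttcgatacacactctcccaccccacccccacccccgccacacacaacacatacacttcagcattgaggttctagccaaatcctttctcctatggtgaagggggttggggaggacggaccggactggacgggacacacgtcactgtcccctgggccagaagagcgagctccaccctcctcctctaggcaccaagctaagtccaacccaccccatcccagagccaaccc

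Cldn4 promoter: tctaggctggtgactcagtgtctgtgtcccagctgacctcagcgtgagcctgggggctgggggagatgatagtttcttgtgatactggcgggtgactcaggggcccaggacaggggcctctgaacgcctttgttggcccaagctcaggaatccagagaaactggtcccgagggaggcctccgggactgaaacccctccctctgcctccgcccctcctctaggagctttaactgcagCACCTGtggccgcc

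The Cldn4 window held 1 match, 14 bases before the start, and the Cldn3 window held none. Promoters were found for 8 of the 10 members (all but Cdh1 and Cldn8), 11 in all with alternative starts, and 4 of the 11 held a match (1 each of Cldn4, Cldn6, Cldn7 and Ocln), against 17.2% of 32851 mouse promoters of the same length. Among members with a promoter that most tumors measured, Cldn7 held a match and Cldn3 and Cldn10 did not. Among the others, Cldn4, Cldn6 and Ocln held one and Cldn1 and Cldn2 did not. A match is a description of the letters and not of binding.

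The library labelled p110-121, a solid carcinoma by its label, went against the label of epithelial cells and is set apart in what follows. The study's own list of these tumors by type does not name it. Of 7 epithelial markers, all had their lowest value of the 17 tumors there, and 4 (Epcam, Krt19, Krt5 and Krt14) were not measured, where the other tumors measured 6 or 7 of 7. Krt8, a keratin of luminal cells, was at -4.32 in p110-121 and between 0.17 and 2.81 in the other 16, and Krt14, a keratin of basal cells, was at -0.19 against 1.18 to 7.76. Summed over the list, the epithelial markers came to -13.7 in p110-121 and 8.90 to 29.1 in the others. Of 9 immune markers, 8 had their highest value in p110-121 (7 of them measured there), and the list summed to 27.6 there against -6.96 to 6.65. Of the 11382 genes measured in at least 9 tumors, 15.9% had their lowest value in p110-121, and the share with their highest value there was not counted. Csf1r, the receptor of macrophages for CSF1, was at 5.23 against -0.77 to 1.04, Lyz2 at 7.17 against -1.76 to 5.07, and Cd74 at 6.47 against -0.37 to 2.95. Csf1r, Lyz2, Cd74, Krt5 and Krt19 are named here after their values were seen. Of 11 fibroblast markers, 4 were highest in p110-121 (3 of them measured there), Vim among them at -1.85 against -5.80 to -2.08, while Dcn (-2.47) and Lum (-1.48, not measured), named after their values were seen, were each second lowest of 17, and the list summed to -6.45 against -40.2 to 4.17. The lists of 9 endothelial and 7 adipocyte markers lay within the range of the other tumors (11.9 against 4.37 to 20.9, and 7.10 against -3.26 to 30.6). In bulk RNA, fewer cells of a type and less RNA per cell cannot be told apart, and the part of cell makeup in the results below was not tested.

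Tumor signal also varied. The share of probes above background in the tumor's color ran from 20.9% to 65.0%. By the 95th percentile of signal, the reference exceeded the tumor by a ratio of 11.8 in p110-98, 11.2 in p110-374, 8.34 in p110-225 and 4.02 in p110-121, and the 13 remaining tumors had ratios up to 2.89. The 3 tumors dimmer than p110-121 measured Cldn3, Cldn7, Cldn8 and Cldn10 and 6 or 7 of the epithelial markers.

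**Figure D1:**
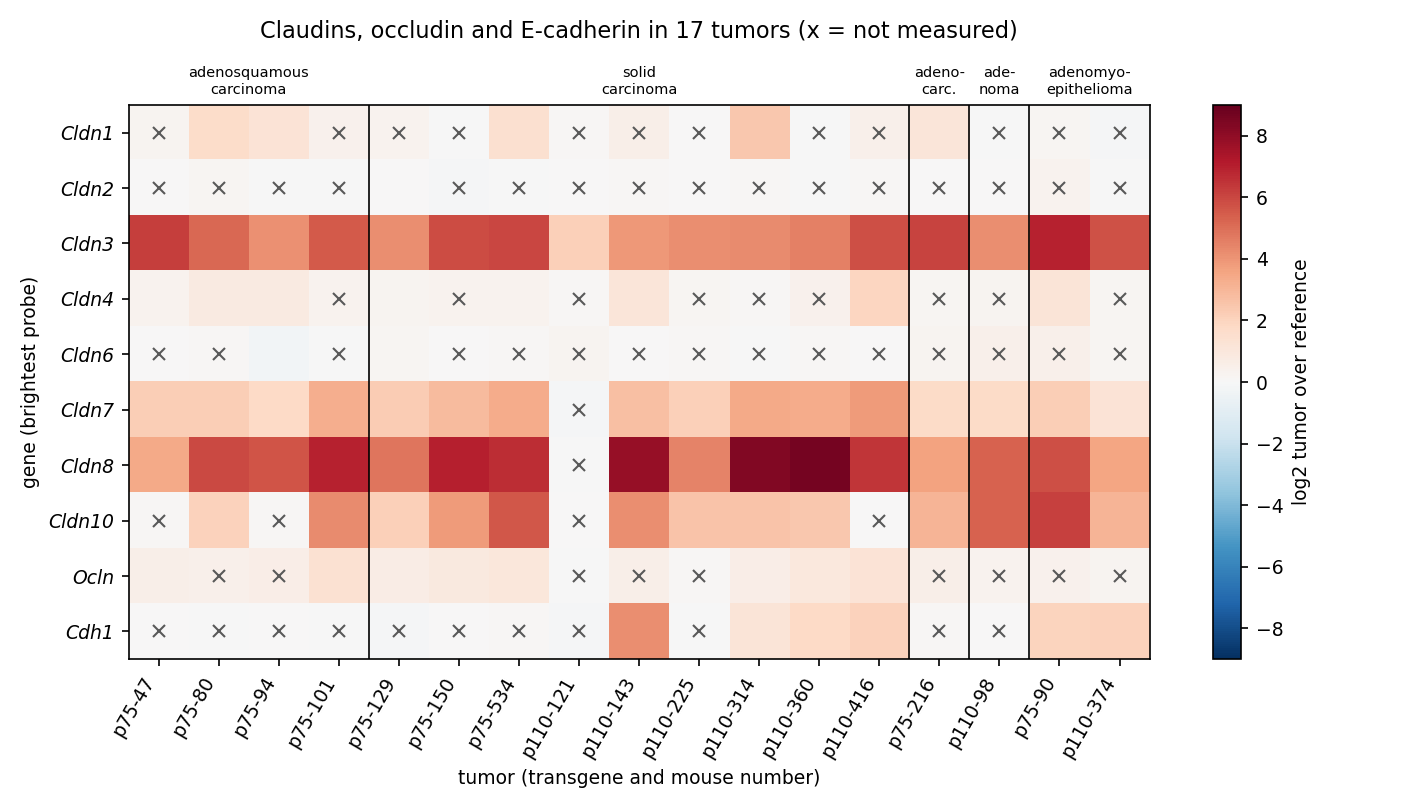
Log2 ratio of tumor over reference for each of the 10 genes (rows, brightest probe) in each of the 17 tumors (columns, by histological type), with a cross where the gene was not measured. Cldn3, Cldn7, Cldn8 and Cldn10 are red in most tumors, and p110-121 has a cross for 9 of the 10 genes.

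Of the claudins among the members, Cldn3, Cldn7, Cldn8 and Cldn10 were those measured in most tumors, and all were above the reference in each tumor that measured them. Cldn3, a sealing claudin of mammary epithelium, was measured in all 17 tumors, with a lowest value of 2.11 in p110-121, a median of 5.20 and a highest value of 6.92 in p75-90. The next lowest was 3.90 in p110-143. The pair of dye-swapped arrays of p110-121 gave 0.44 and 3.78, so that value is the least certain of them, and over all tumors the pooled SD between arrays of a tumor was 0.85 against an SD of 1.19 between tumors. Here and below, the first SD is that of single arrays and the second that of means over a tumor's 2 or 4 arrays. Cldn3 was the single member measured in p110-121.

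Cldn7, which is found along the sides of epithelial cells as well as in tight junctions, was measured in 16 tumors. Values in these ran from 1.23 in p110-374 to 3.85 in p110-416, with a median of 2.23 over all 17. It was at -0.10 and not measured in p110-121, and signal there was at least 2.48-fold to 15.1-fold lower than in each of the other 16. Arrays of a tumor differed little, with a pooled SD of 0.35 against 0.97 between tumors.

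Cldn8, known from the kidney as a partner of other claudins in the barrier to ions, spanned the widest range of the members over all 17 tumors. It was measured in the same 16 tumors, from 3.39 in p75-47 to 8.59 in p110-360, with a median of 5.79 over all 17. In p110-121 it was at -0.0089 and not measured, at least 9.31-fold to 328-fold below the others. The pooled SD between arrays was 0.92, against 2.14 between tumors. Without p110-121, Cldn10 had the widest range, from 0.029 (not measured) to 6.18.

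Cldn10, which forms channels for ions in the kidney and glands, was measured in 13 tumors and absent from the measured set in 4. It was highest in the adenomyoepithelioma p75-90 at 6.18, followed by the solid carcinoma p75-534 at 5.61 and the adenoma p110-98 at 5.32. It was lowest among measured tumors in p75-80 at 2.06. The 4 tumors without a measured signal were the adenosquamous carcinomas p75-47 (0.083) and p75-94 (0.076) and the solid carcinomas p110-121 (0.016) and p110-416 (0.029). No tumor lay between 0.083 and 2.06, so Cldn10 was either clearly present or not above background. Unlike p110-121, the tumors p75-47, p75-94 and p110-416 measured Cldn3, Cldn7, Cldn8 and all 7 epithelial markers.

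Pairs of these 4 claudins differed in how closely they followed each other. Over the 17 tumors, Pearson's r was 0.87 for Cldn7 with Cldn8, 0.42 for Cldn3 with Cldn7 and 0.24 for Cldn3 with Cldn8. Without p110-121, over 16 tumors, r was 0.76, 0.025 and -0.30. Cldn10 had r of 0.36, 0.22 and 0.39 with Cldn3, Cldn7 and Cldn8 over 17 tumors and of 0.19, -0.025 and 0.21 over 16. Tumors that did not measure a gene are included, 4 of 17 for Cldn10. The values share 1 reference and the brightness of each library, and no p is given.

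The remaining claudins among the members were dim. Cldn4, a close relative of Cldn3, was measured in 8 tumors and reached 1.96 in p110-416, 1.17 in p75-90 and 1.07 in p110-143. The other 5 tumors that measured it lay between 0.24 and 0.80, and values in tumors that did not ran from 0.087 to 0.42, so these ranges overlapped. Cldn1, the main sealing claudin of the epidermis, was measured in 5 tumors. Its values there were 2.39 in p110-314, 1.63 in p75-80, 1.44 in p75-534, 1.21 in p75-94 and 1.12 in p75-216, all above the highest unmeasured value of 0.55. The other Cldn1 probe was highest in p110-314 too, at 2.12, the tumor in which it was measured.

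Cldn2, a claudin that forms pores for cations, was measured in p75-129, and Cldn6, known from embryonic epithelium, was measured in p75-129 and p75-94. Their values ran from -0.073 to 0.34 and from -0.26 to 0.43 over the 17 tumors. Neither Cldn2 nor Cldn6 gave a usable level, and p75-129 is the library with the largest share of probes above background, 65.0%.

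Ocln was measured in 8 tumors by its brighter probe. The highest values were 1.36 in p75-101, 1.24 in p110-416 and 0.99 in p75-534, and the lowest measured value was 0.56 in p75-47. Tumors that did not measure Ocln reached 0.58, so its measured and unmeasured values met. The SD between tumors was 0.38 and the pooled SD between single arrays of a tumor was 0.32. A tumor's value is a mean over its arrays, so these SDs are not on the same scale.

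Cdh1 separated the tumors into those with and those without a measured signal. It was at 4.21 in the solid carcinoma p110-143, 2.06 in the adenomyoepithelioma p110-374, 2.04 in the solid carcinoma p110-416, 1.98 in the adenomyoepithelioma p75-90, 1.79 in the solid carcinoma p110-360 and 1.17 in the solid carcinoma p110-314. In the other 11 tumors, all 4 adenosquamous carcinomas included, it lay between -0.11 and 0.12. The probe is printed as 10 spots on each array. All 10 were above background on every array of the 6 tumors, and at most 1 was on any array of the other 11. The SD over the 10 spots of an array was between 0.025 and 0.53, and the pooled SD between arrays of a tumor was 0.52 against 1.23 between tumors.

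**Figure D2:**
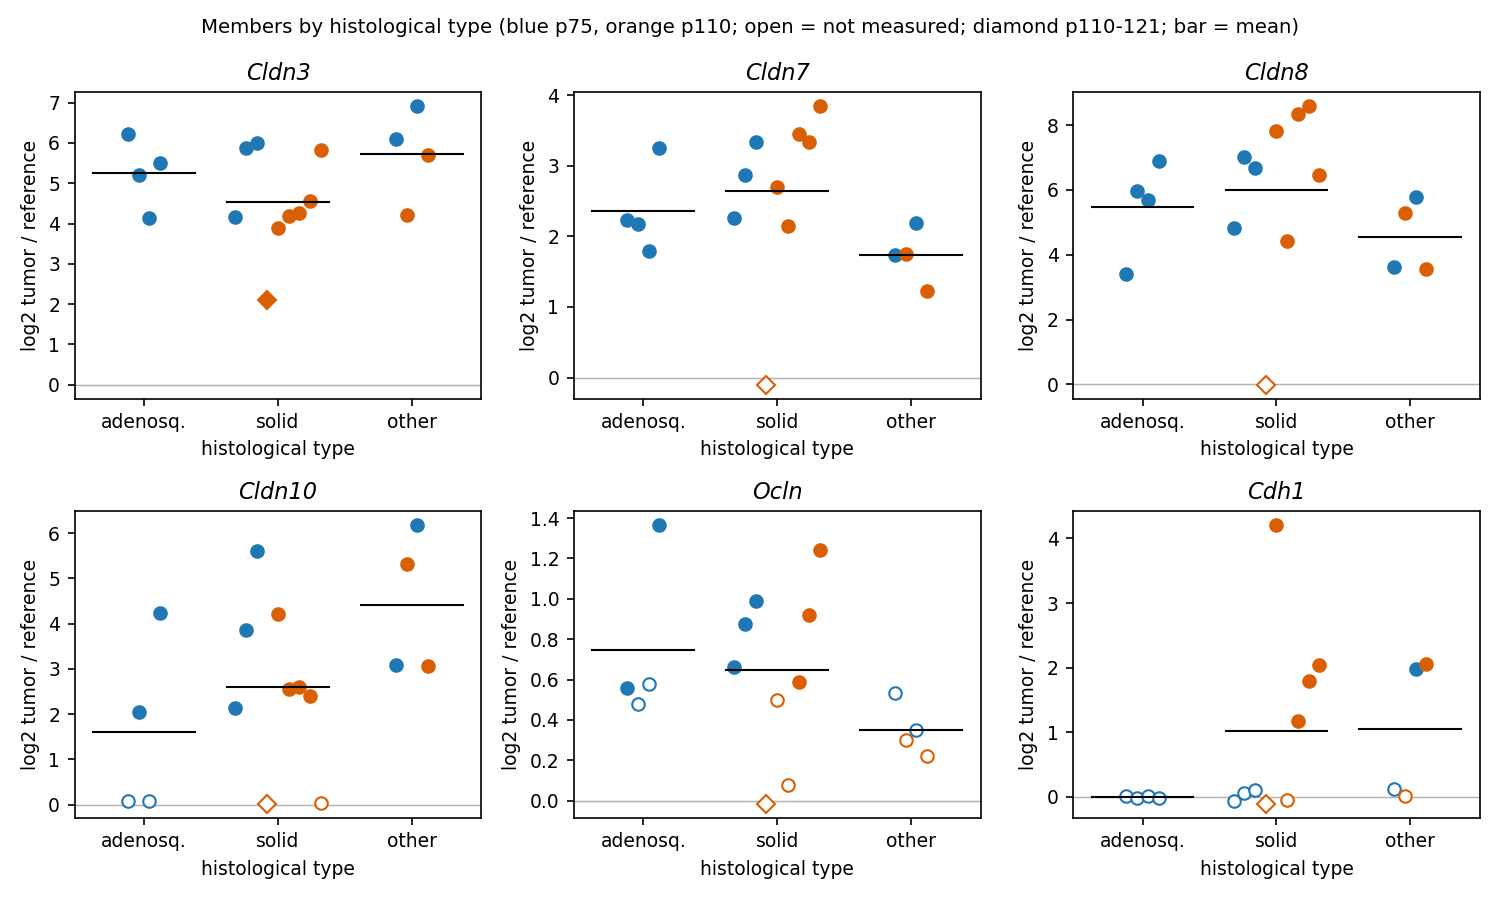
Log2 ratio of tumor over reference for Cldn3, Cldn7, Cldn8, Cldn10, Ocln and Cdh1 in adenosquamous carcinomas, solid carcinomas and the 4 tumors of other types, 1 point a tumor, colored by transgene, open where not measured, with the mean as a bar. The p110-121 diamond is lowest of the solid carcinomas in each panel, and the 4 adenosquamous carcinomas all sit near 0 for Cdh1.

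To ask whether any tumor looked claudin-low, each tumor was described by how many of the 5 core genes were among its 4 lowest values of 17 and how many were not measured. The core genes not measured numbered 4 in p110-121, 3 in p75-216, p110-98 and p110-225, and 0 to 2 in the other 13. In p110-121 all 5 were among the 4 lowest values, in p110-374 3 were, in p75-129, p75-216, p110-98 and p110-225 2 were, and in the others 0 or 1. Ranks of Cldn4, Ocln and Cdh1 at this end are mostly among values not above background, which have no order, so the ranks of these genes do not tell the tumors apart. The core genes measured in most tumors are Cldn3 and Cldn7: p110-121 was lowest of 17 for Cldn3 and the only tumor that did not measure Cldn7. Of the 4 members measured in at least 9 tumors, 4 had their lowest value in p110-121 (Cldn10 as 1 of 4 tumors not above background), as did 15.9% of the 11382 genes measured that often. Of the 2 members measured in 16 tumors, p110-121 was the missing tumor for both, and it was for 24.4% of 1360 such genes.

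The core genes summed to 2.01 in p110-121 and to between 6.52 (p110-98) and 14.9 (p110-416) in the others. p110-416 measured all 5 core genes, the only tumor to do so. Of 22 tight junction partners, 10 had their lowest value of 17 in p110-121, of 19 adherens junction and desmosome partners 2, and of 13 activators of junction genes 5, and of these 3, 0 and 1 were measured there, so the rest were not above background. The 15.9% of genes lowest in p110-121 covers genes measured in at least 9 tumors, while these lists also hold genes measured less often. Of the genes measured in p110-121, 1 tight junction partner, 0 adherens junction and desmosome partners and 0 activators had their highest value there. Tjp3, a scaffold protein that ties claudins to actin, was at -0.15 and not measured, against 1.33 to 5.19 in the other 16. Grhl2, a transcription factor that activates claudin and E-cadherin genes, was at -0.35 against 2.85 to 5.11, and Epcam, which binds Cldn7, was at -0.28 against 0.18 to 2.25, both not measured in p110-121. Tjp1, another scaffold protein, was at -0.072, Ctnnd1 at 0.59 and the activator Elf3 at -0.49, each within the range of the others, and Tjp1 and Elf3 were not measured. Of 11 repressors, 0 were lowest and 1 was highest in p110-121: Zeb2, named after its value was seen, at 0.63 against -3.68 to -1.08, while Zeb1 (-1.51) and Snai2 lay within the range of the others. The low Cldn3 and unmeasured Cldn7 thus stood beside low keratins and high immune markers in 1 library, as given above. Each of the 16 tumors with 6 or 7 epithelial markers measured Cldn3, Cldn7 and Cldn8.

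**Figure D3:**
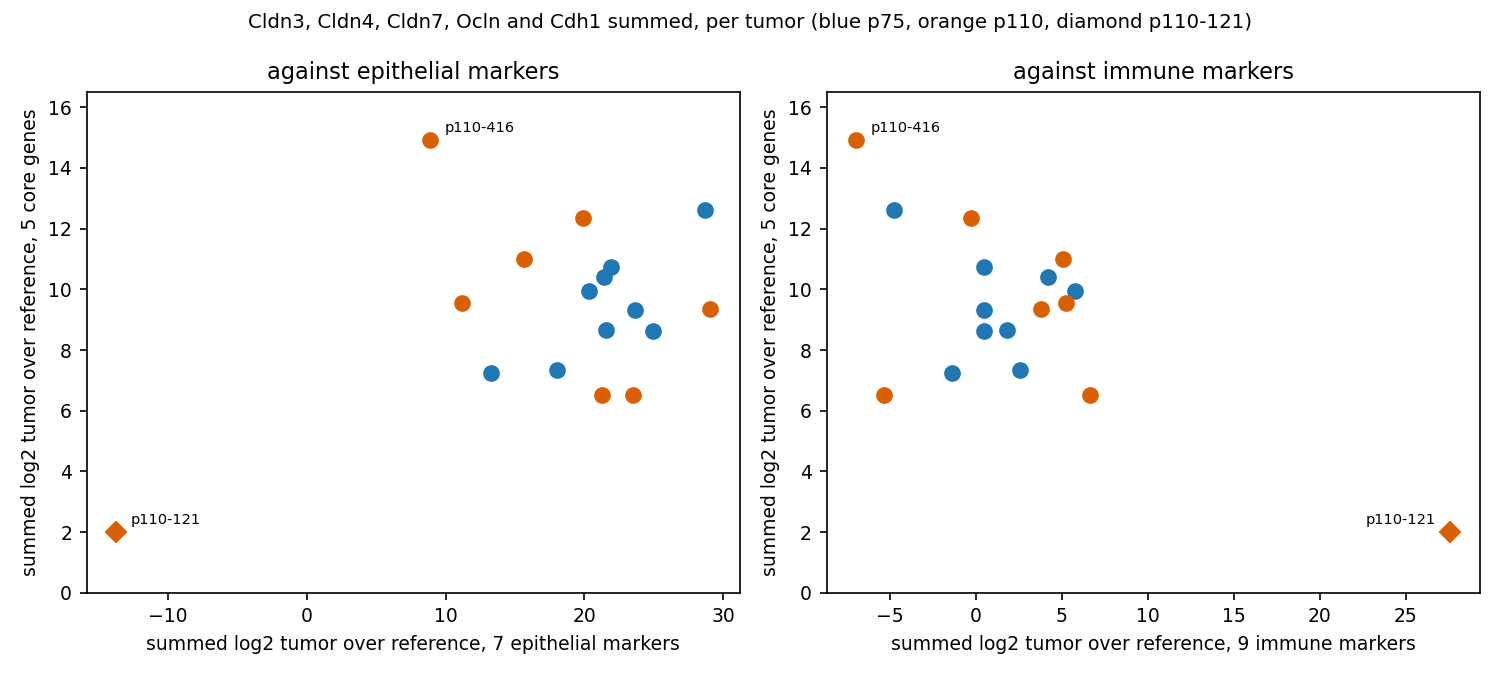
Summed log2 ratio of the 5 core genes (Cldn3, Cldn4, Cldn7, Ocln, Cdh1) against the sum over 7 epithelial markers (left) and over 9 immune markers (right), 1 point a tumor, colored by transgene. p110-121 (2.01 for the core genes) lies apart on both horizontal axes, at -13.7 and 27.6.

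Between the histological types with over 2 tumors, no member differed beyond the spread of its group. All adenosquamous carcinomas came from p75 mice and most solid carcinomas from p110 mice, and the arrays of these were scanned in different years. Type is therefore partly confounded with transgene and scan year. The limma test of adenosquamous against solid carcinomas called 0 of 10 members and 0% of all genes at a Benjamini-Hochberg adjusted p under 0.05. At an unadjusted p under 0.05 it passed 0 members and 5.52% of genes (1588). Of the 10 members, 4 were higher in adenosquamous carcinomas, with a median difference of -0.063 against -0.0061 over all genes.

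Over all tumors the largest differences were of Cdh1 and Cldn10, and without p110-121 they were of Cldn10 (-1.31) and Cldn8 (-1.28), ahead of Cdh1 (-1.16). The place of Cdh1 in this order is not set, since it was above background on 0 reference arrays and 0 adenosquamous arrays. Cdh1 was at 0.0034, -0.016, 0.017 and -0.015 in the adenosquamous carcinomas p75-47, p75-80, p75-94 and p75-101. In the 9 solid carcinomas it ran from -0.11 to 4.21 with a median of 0.10, so the groups overlapped. It was above background on 0 arrays of the adenosquamous carcinomas and measured in 4 solid carcinomas. The mean signal of the 9 solid carcinomas was 1.54-fold the background limit of the adenosquamous arrays. Solid carcinomas that did not measure Cdh1 are in that mean, so the fold is not a strict bound. The difference of log ratios was -1.02 (SE 0.69, limma adjusted p = 0.871). Within the p75 tumors, 4 adenosquamous against 3 solid, the difference was -0.029, and all 4 solid carcinomas with measured Cdh1 are p110 tumors. Without p110-143 the difference was -0.62.

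Cldn10 was at 0.083, 2.06, 0.076 and 4.24 in the same 4 adenosquamous carcinomas, and ran from 0.016 to 5.61 with a median of 2.55 in solid carcinomas (difference -0.99, SE 1.09, limma adjusted p = 0.892). That difference was -2.25 within p75 tumors, and with 1 tumor left out it ran from -1.86 (without p75-101) to -0.47 (without p75-94). Cldn3 was at 6.21, 5.20, 4.14 and 5.50 in adenosquamous and from 2.11 to 5.99, median 4.26, in solid carcinomas. Its difference of 0.72 (SE 0.64, limma adjusted p = 0.876) became 0.42 without p110-121 and -0.076 within p75 tumors.

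Cldn7 was at 2.23, 2.18, 1.79 and 3.25 in adenosquamous carcinomas, and Cldn8 at 3.39, 5.95, 5.68 and 6.90. The solid carcinomas overlapped these, with Cldn7 from -0.10 to 3.85 (median 2.87) and Cldn8 from -0.0089 to 8.59 (median 6.68). The difference of Cldn7 was -0.28 (95% interval -1.56 to 0.99) and that of Cldn8 was -0.53 (-3.44 to 2.38). Without p110-121 they were -0.63 (-1.41 to 0.15) and -1.28 (-3.20 to 0.64), with limma adjusted p = 0.868 for both. Exact two-sided permutation tests of the 10 members gave p from 0.0937 (Cldn6) to 0.952 (Cldn4), where the smallest possible is 0.0014.

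Ocln, at 0.56, 0.48, 0.58 and 1.36 in adenosquamous carcinomas and -0.015 to 1.24 in solid carcinomas, differed by 0.097 (-0.40 to 0.59). Cldn4 differed by 0.035 (-0.66 to 0.73) and Cldn1 by 0.29 (-0.64 to 1.22), which ran from 0.038 without p75-80 to 0.52 without p110-314. Each of these intervals spans 0 and reaches 0.59 or more on its upper side, so equal levels in both types are not shown.

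**Figure D4:**
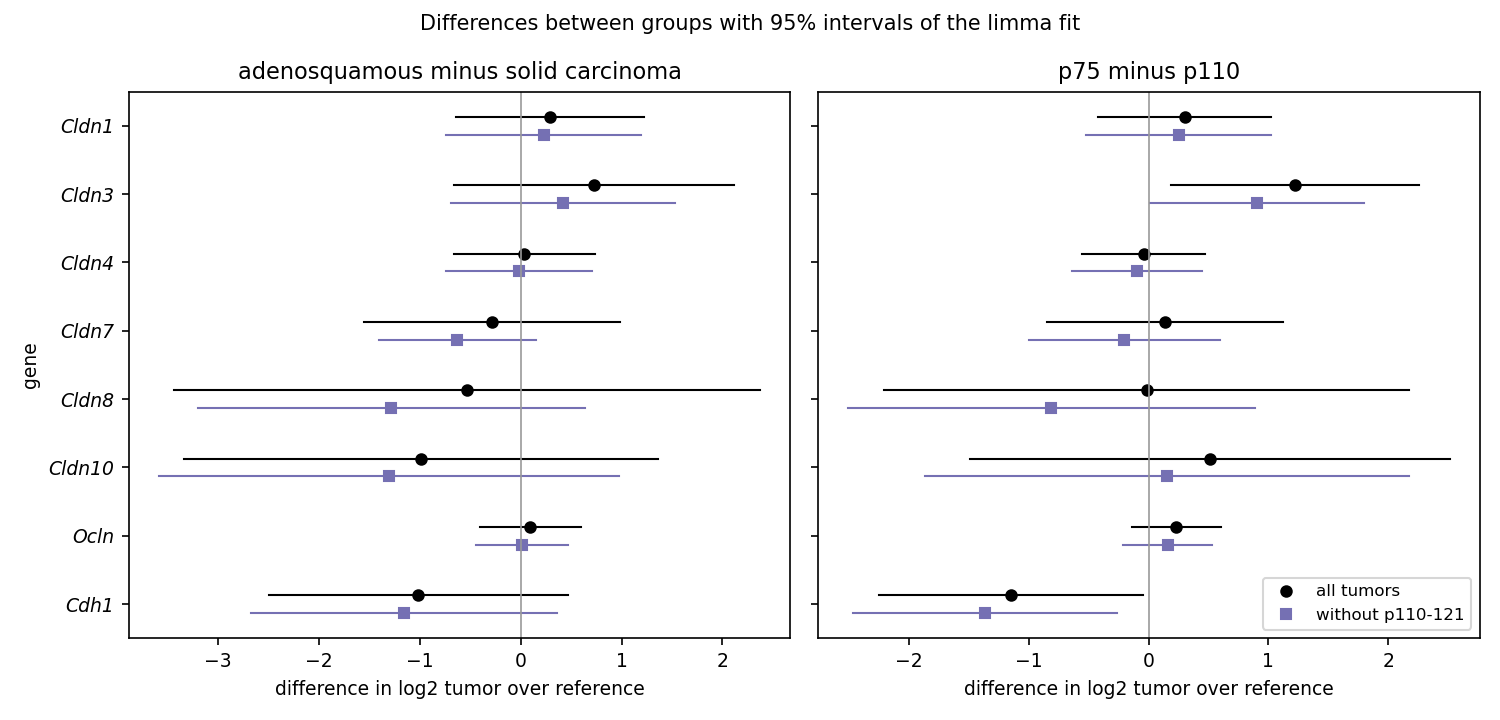
Difference in log2 tumor over reference for the 8 members measured in at least 5 tumors, adenosquamous minus solid carcinomas (left) and p75 minus p110 tumors (right), with 95% intervals of the limma fit, over all tumors (circles) and without p110-121 (squares). Every interval on the left spans 0, and on the right those of Cldn3 and Cdh1 do not, before adjustment for the number of genes.

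Between the transgenes, Cldn3 was higher and Cdh1 lower in p75 tumors before adjustment, and neither passed it. The limma test called 0 of 10 members, and 0.459% of genes (61 higher and 71 lower in p75). At an unadjusted p under 0.05 it passed 2 members and 14% of genes (4039), so the members' share was near that of all genes. Scans of p75 and p110 arrays were made in different years, so transgene and scan year cannot be told apart.

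Cldn3 in the 9 p75 tumors ran from 4.14 to 6.92 with a median of 5.87, and in the 8 p110 tumors from 2.11 to 5.82 with a median of 4.23. The p75 tumors lay mostly higher and the groups overlapped. The difference was 1.22 (SE 0.49, limma p = 0.0232, adjusted p = 0.256, exact permutation p = 0.0273), and without p110-121 it was 0.90 (adjusted p = 0.384, exact permutation p = 0.0624). It was 1.20 among solid carcinomas alone (3 p75 against 6 p110) and 0.79 there without p110-121. With each array only centered on its median, and no loess, it was 2.40 (limma adjusted p = 0.034), the single setting in which a member was called.

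Cdh1 was measured in 1 of 9 p75 tumors, the adenomyoepithelioma p75-90, and in 5 of 8 p110 tumors. It ran from -0.072 to 1.98 (median 0.017) in p75 and from -0.11 to 4.21 (median 1.48) in p110. The difference was -1.15 (SE 0.52, limma p = 0.0424, adjusted p = 0.333, exact permutation p = 0.0526). Without p110-121, which was set apart after its values were seen, it was -1.36 (adjusted p = 0.271, exact permutation p = 0.026). Without p110-143, the tumor with the highest Cdh1, it was -0.75.

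For the remaining members the intervals of the difference spanned 0. Cldn7 was at 2.43 ± 0.59 (SD, n = 9) in p75 and 2.29 ± 1.32 (SD, n = 8) in p110, with a difference of 0.14 (-0.85 to 1.13). Cldn8 was at 5.54 ± 1.34 (SD, n = 9) and 5.56 ± 2.90 (SD, n = 8), with a difference of -0.018 (-2.21 to 2.17). Without p110-121 the differences were -0.20 (SE 0.37) for Cldn7 and -0.81 (SE 0.80) for Cldn8. Ocln, Cldn10 and Cldn1 differed by 0.23 (-0.14 to 0.60), 0.51 (-1.49 to 2.51) and 0.30 (-0.42 to 1.02), and Cldn4 by -0.040 (-0.56 to 0.47). With 1 tumor left out, Ocln ran from 0.15 (without p75-101) to 0.34 (without p110-416), Cldn10 from 0.12 (without p75-90) to 0.91 (without p110-98), with 0.15 without p110-121, and Cldn1 from 0.19 (without p75-80) to 0.58 (without p110-314). Cldn6 was measured in 2 p75 tumors and above background on 0 p110 arrays. Its mean signal in the tumor's color over all p75 tumors was 1.10-fold the background limit of the p110 arrays. Its log ratio was lower in p75 by -0.029 (limma adjusted p = 0.913), so no direction is given for it. Over these 2 comparisons, 20 exact permutation tests of single members were made over all tumors, and the same 20 were made again without p110-121. The second 20 follow from values seen in these data.

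The study also drew clusters of these tumors from the mRNA of Wnt genes, in which 5 tumors were high, 5 medium and 7 low in Wnt mRNA. The clusters are not among the labels and were made from the same arrays, so members are described in them without a test. Cldn7 in the low-Wnt tumors was between 2.69 and 3.85 (median 3.33), above the high-Wnt tumors at 1.23 to 2.23 (median 2.15) and the medium-Wnt tumors at -0.10 to 2.26 (median 1.76). Cldn8 was between 6.45 and 8.59 (median 7.02) in low-Wnt tumors, again above the high-Wnt tumors at 3.39 to 5.95 (median 4.43) and the medium-Wnt tumors at -0.0089 to 5.79 (median 4.81). For both genes no low-Wnt tumor overlapped any other tumor. Values without overlap and higher in low-Wnt tumors were found for 0.0556% of all 28786 genes (16 genes), and for 0.114% of the 11382 genes measured in at least 9 tumors.

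The low-Wnt tumors hold both transgenes, 6 solid carcinomas and the adenosquamous carcinoma p75-101. The 4 libraries with the dimmest tumor signal are all in the other clusters. Leaving these 4 out, the 6 remaining tumors of these clusters had Cldn7 between 1.74 and 2.26 and Cldn8 between 3.39 and 5.95, still below every low-Wnt tumor. Of 8 ways to process the arrays, the separation held in 6 for each gene. It was lost for both when the tumor channel was used without a ratio (Cldn7 from 10.0 in low-Wnt tumors against up to 11.1 in the others, Cldn8 from 11.7 against up to 12.2), for Cldn7 with arrays centered on their median (1.67 against 2.91) and for Cldn8 with the tumor in Cy3 alone (5.18 against 5.71).

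**Figure D5:**
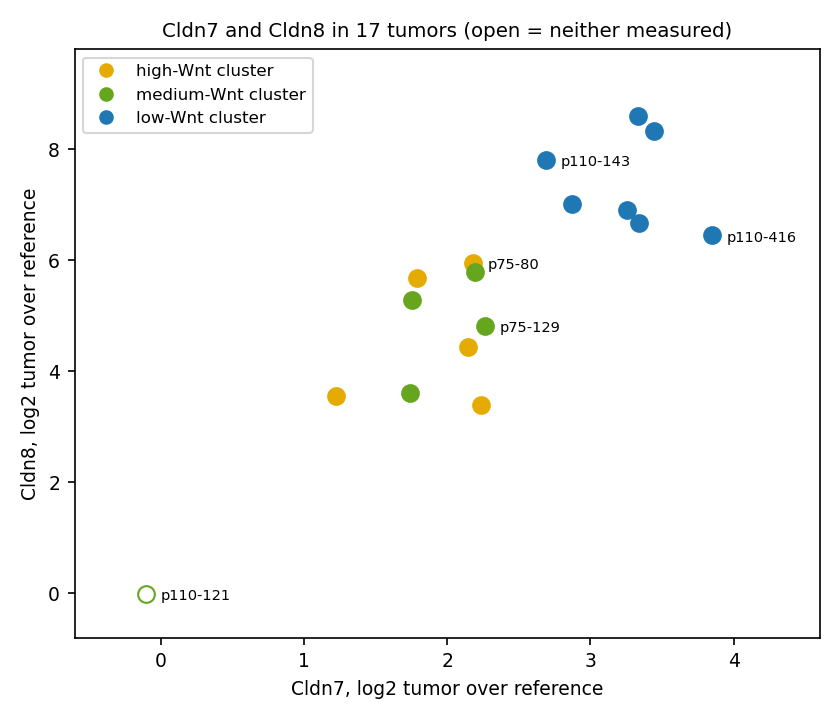
Log2 ratio of tumor over reference of Cldn7 (horizontal) and Cldn8 (vertical) in 17 tumors, colored by the clusters the study drew from Wnt genes. The 7 low-Wnt tumors fill the upper right (Cldn7 from 2.69, Cldn8 from 6.45), and p110-121 lies near 0 on both axes.

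Values of each other member overlapped between the low-Wnt tumors and the rest. Ocln was between 0.50 and 1.36 (median 0.92) in low-Wnt tumors and measured in 6 of 7, between 0.080 and 0.58 in high-Wnt and between -0.015 and 0.66 in medium-Wnt tumors, and measured in 1 of 5 in each. Cdh1 was measured in 4 of 7 low-Wnt, 1 high-Wnt and 1 medium-Wnt tumor. Cldn3 had medians of 5.50 in low-Wnt, 5.20 in high-Wnt and 4.20 in medium-Wnt tumors, and Cldn10 of 3.85, 2.06 and 3.08. Without p110-121, the medium-Wnt medians were 5.15 for Cldn3 and 4.20 for Cldn10, the latter then above the low-Wnt median.

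Related genes were given from lists. Of 13 other claudins on the arrays, 22 tight junction partners, 19 adherens junction and desmosome partners, 11 repressors and 13 activators of epithelial junction genes, limma called 0 in either comparison. Median differences, adenosquamous minus solid, were -0.099, -0.13, 0.20, 0.36 and 0.042 in this order, and p75 minus p110 -0.022, 0.13, 0.15, -0.0053 and 0.22. At an unadjusted p under 0.05, which 5.52% of all genes passed, these lists in the same order held 0, 2, 4, 1 and 1 genes higher and 0 lower in adenosquamous carcinomas. In p75 against p110, where 14% of all genes passed, they held 2, 1, 5, 0 and 0 higher and 4, 0, 2, 1 and 0 lower. Tjp1 had a mean of 0.25 in adenosquamous and -0.16 in solid carcinomas (difference 0.41, SE 0.11, limma adjusted p = 0.798). Ctnnd1, the catenin that keeps E-cadherin at the membrane, had a mean of 0.30 in p75 and 0.76 in p110 tumors and did not pass (difference -0.46, SE 0.10, limma adjusted p = 0.0565). Snai2, a repressor of Cdh1, had a mean of -0.013 in adenosquamous and -1.93 in solid carcinomas (difference 1.92, SE 0.86, limma adjusted p = 0.871), and Krt14 one of 5.87 against 2.37 (difference 3.50, SE 0.70, limma adjusted p = 0.494). Of the markers of other cells, limma called 0 epithelial, fibroblast, endothelial, immune and adipocyte genes in both comparisons. The median differences, adenosquamous minus solid and p75 minus p110, were 0.51 and 0.67 for the epithelial, 0.52 and -0.11 for the fibroblast, -0.18 and -0.34 for the endothelial, -0.20 and -0.20 for the immune and -0.33 and -0.51 for the adipocyte markers. Of 7 epithelial markers, 6 had a higher mean in p75 tumors, as Cldn3 did, and their part in the Cldn3 difference was not tested. p110-121 is among the solid and the p110 tumors in these comparisons.

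The genes whose pattern over the 17 tumors was most like that of each well-measured member were sought among the 11382 genes measured in at least 9 tumors. These are the highest r of 11381 candidates, and the values share 1 reference and the brightness of each library, so no p is given. For Cldn8 they were A230051G13Rik (Pearson's r 0.89), Cldn7 (0.87) and Tfap2c (0.85), and for Cldn7 they were Irx2 (0.88), Kcnk1 (0.87) and Khdrbs3 (0.87). For Cldn10 they were 2210013O21Rik (0.90), Mia (0.89) and Rab19 (0.88), and for Cldn3 they were Rnf10 (0.86), Crip2 (0.85) and Bola1 (0.85). Without p110-121, the 3 genes most like Cldn10 were the same, with r of 0.90, 0.87 and 0.87. For Cldn7 all 3 changed, to Tmprss13 (0.89), D630013G24Rik (0.88) and Ceacam10 (0.86), and Irx2 fell to 0.83. For Cldn8, A230051G13Rik stayed first (0.88), and Cldn7 (0.76) and Tfap2c (0.74) gave way to Klhl13 (0.83) and Tbcb (0.79). For Cldn3, Crip2 (0.82) stayed among the 3 and Rnf10 and Bola1 did not.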

How the data were processed

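RNA from laser-captured epithelial tumor cells and the amplified reference were hybridised to 38 two-color Agilent whole mouse genome arrays (15 slides, 10 scan days), 45018 spots each. The authors deposited log2 ratios of tumor over reference, made with limma. The scanner files deposited beside them hold spot and background intensity in both colors. Recomputing the ratios from the intensities (normexp with offset 50, loess, mean over dye-swapped arrays) gave the deposited log2 values to within 4.98e-08. Spots of a probe were averaged over 43379 non-control spots and 41174 probes, of which 22951 (55.7%) matched a RefSeq accession, and the brightest probe stood for a gene. Loess assumes that most genes do not differ from the reference, and amplification and dim libraries limit low genes.

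Groups came from the labels. Each tumor is a separate mouse and 1 replicate. Histological types (all 5 as groups of the fit) and transgenes were compared with limma 3.58.1 in R 4.3.3 on all 17 tumors, with Benjamini-Hochberg adjustment over 28786 genes and a threshold of 0.05. Single members were compared by exact two-sided permutation of the difference in means. The fit was tested on simulated data. The number of arrays limits the precision. Lists (other claudins, junction partners, repressors, activators, and markers of epithelial, fibroblast, endothelial, immune and adipocyte cells) and members were chosen with earlier results of these data known. Named were the members, the 3 genes most like each member measured in at least 9 tumors, list genes called by limma, and partners (Epcam, Tjp1, Tjp3, Ctnnd1, Snai2, Zeb1, Vim, Grhl2, Elf3, Krt8 and Krt14). A further partner is not reported here. Alternatives changed background correction, normalization, source of values, reference, filter on dim probes, probe choice, dye, scan day and slide as random blocks, transgene or histological blocks and subsets, and each tumor left out. Figures were drawn with matplotlib 3.10.9.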

Additional observations from a re-analysis of the deposited data

Results flagged for a closer look

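Of 32 groups of 4 to 10 tumors tested for a value far from the others, over 8 members, 6 held one. Chance alone marks about 1 in 20 groups if they are separate and hold measured values. These groups share tumors, and some hold mostly values not above background, so the count cannot be read against that rate. In the solid carcinomas, p110-121 was far below the rest for Cldn7 (-0.10, nearest 2.15) and for Cldn8 (-0.0089, nearest 4.43). In the same group p110-143 was far above the rest for Cdh1 (4.21, nearest 2.04). Among p75 tumors, p75-90 was far above the rest for Cdh1 (1.98, nearest 0.12), as the only p75 tumor that measured it. Among p110 tumors, p110-314 was far above the rest for Cldn1 (2.39, nearest 0.55), as the only p110 tumor that measured it. Among adenosquamous carcinomas p75-101 was far above the rest for Ocln (1.36, nearest 0.58, not measured).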

How the results depend on the processing

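No member was called by limma in adenosquamous against solid carcinomas under any alternative, and Cldn3 was the only one called in p75 against p110, with arrays centered on their median (1 member, difference 2.40). Over all genes, the first comparison called 1 gene with Feature Extraction signals and 0 to 27 with a tumor left out (27 without p75-101). The second called 211 genes with no background correction, 1241 with arrays centered on their median, 308 with Feature Extraction signals, 1693 with the tumor color alone, 259 with the tumor in Cy5 alone, 70 in Cy3 alone, 1 with histological type as a block, 0 in solid carcinomas alone and 0 there without p110-121, the last chosen after seeing the data. Leaving out a tumor gave 35 (without p75-47) to 1173 genes (without p110-314) and 0 members in both comparisons. Differences of members that changed sign were, for adenosquamous against solid, Cldn4 (-0.052 with no background correction, -0.0023 median-centered), Cldn7 (0.011 median-centered, 0.040 tumor color alone), Ocln (-0.015 Cy5 alone, -0.076 transgene as a block, -0.097 p75 alone) and Cldn3 (-0.077 transgene as a block, -0.076 p75 alone). For p75 against p110 they were Cldn8 (0.018 with no background correction, 0.61 median-centered, 0.53 Feature Extraction, 0.0099 Cy5 alone, 0.64 histological block, 0.24 solid alone), Cldn4 (0.16 tumor color alone), Cldn7 (-0.053 Cy3 alone, -0.27 solid alone without p110-121) and Cldn1 (-0.0091 solid alone, -0.11 there without p110-121). With a tumor left out, the first comparison ran from -0.048 to 0.21 for Cldn4, -1.28 to 0.17 for Cldn8 and -0.11 to 0.19 for Ocln, and the second from -0.13 to 0.16 for Cldn4, -0.20 to 0.36 for Cldn7 and -0.81 to 0.42 for Cldn8. The cause was not tested. Differences were recomputed for the 8 members measured in at least 5 tumors, and testing every probe by itself gave counts only. No paired analysis was possible because the replicate numbers only follow accession order. Signal over background limits Cldn1, Cldn2, Cldn4, Cldn6, Ocln and Cdh1.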
